A study of Mus musculus with 4 samples.

Results

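This account covers 7 of the 24369 genes measured, namely the cytokine genes *Il10* and *Il24* and the transcription factor genes *Maf*, *Prdm1*, *Nfil3*, *Bhlhe40* and *Ahr*. They were chosen by name with their Tox RV and EV RV expression values in these same libraries known, so those values are given as a description, with no test. The RNA-seq experiment held 4 libraries, 2 for each of 2 groups, made from naïve splenic CD4 T cells of WT C57BL/6 mice that were activated under non-polarizing conditions with anti-CD3, anti-CD28 and IL-2. On day 2 the cells received a retrovirus carrying GFP alone (EV RV, the empty vector control) or GFP together with *Tox* (Tox RV). On day 5 both groups were restimulated through CD3 and sorted as CD4 GFP+ cells, so every library holds transduced and restimulated cells grown in vitro, with *Tox* driven in one group by the MSCV vector rather than by its own promoter. The study's methods name anti-CD3 for that last step and its results and the series' design text add anti-CD28. Each group stood for 2 mice, and the sources used here do not say whether an EV RV and a Tox RV library came from the same mouse. Values given as a pair run from replicate 1 to replicate 2 of a group.

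IL-10 is a cytokine that restrains inflammation. It binds IL-10RA and IL-10RB and signals through JAK1, TYK2 and STAT3. IL-24 belongs to the same cytokine family and signals through IL-20RB paired with IL-20RA or IL-22RA1. In CD4 T cells c-Maf (*Maf*), Blimp-1 (*Prdm1*), NFIL3 (also called E4BP4) and the ligand-activated aryl hydrocarbon receptor (*Ahr*) are known to favour *Il10* transcription in several helper subsets, while BHLHE40 is known to restrain it.

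Total expected counts came to 46989997 and 74548723 for EV RV and to 61442264 and 49012254 for Tox RV. *Tox* stood at 11.7 and 5.73 CPM (counts per 1000000 counts of a library, scaled by the TMM method of edgeR) under EV RV and 121 and 99.9 CPM under Tox RV, so each library carried the *Tox* level of its label. EV RV replicate 1 stood apart from the other 3 libraries. It lay at -53.8 on the first principal component of log2 CPM, with the others between 5.70 and 25.8, and 24.7% of its counts came from the 45S pre-ribosomal RNA *Rn45s* against 11.97% in EV RV replicate 2 and 10.3% and 7.14% under Tox RV. The fold changes of the 7 genes are therefore given also without this library, in a fit where the lone EV RV library is assumed to vary as the Tox RV pair does. *Cd4* was at 324 to 479 CPM in the 4 libraries. Of 7 CD8 T and NK cell markers 6 had enough counts to be tested, and their sum was 136 and 125 CPM under EV RV and 105 and 82.5 CPM under Tox RV, most of it *Eomes*, which activated CD4 T cells also express, while *Ncr1* was at 0 counts throughout. The 6 B cell markers summed to 1.40 and 1.75 CPM under EV RV and 1.49 and 1.56 CPM under Tox RV, with *Ms4a1* and *Pax5* at 0 counts. The 7 myeloid markers summed to 1.64 and 2.21 CPM under EV RV and 1.96 and 1.60 CPM under Tox RV, and *Lyz2* never passed 2 counts. The part of these cells in the results was not tested. In bulk RNA, fewer producing cells and less RNA per producing cell cannot be told apart.

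The comparison of Tox RV with EV RV asks which genes ectopic Tox moves in unpolarized cells. With p-values of the quasi-likelihood test of edgeR adjusted by Benjamini-Hochberg, 0 of the 14143 genes with enough counts (0%) reached an adjusted p-value of 0.05, and the 7 genes were no exception. An unadjusted p-value below 0.05 was found for 512 genes (3.62%), 152 with the higher level under Tox RV (1.07%) and 360 with the lower (2.55%). A refit with DESeq2 gave 22 genes at an adjusted p-value below 0.05 (0.121% of those it adjusted). The 7 genes were not among those 22. The study also used DESeq2, and its own gene list added a fold-change cutoff, so that list is not the one given here. In the study *Il10* is described as increased by ectopic Tox in the RNA-seq, in qPCR of further cultures and as protein. The reason for the difference from the refit was not tested. All 7 had enough counts to be tested. In CPM, both Tox RV values exceeded both EV RV values for 2 of the 7 (*Il10* and *Maf*), against 18.6% of all genes tested, and were below both for 0 of the 7, against 17.4%. The log2 fold change was beyond 1 for 1 of the 7 (all genes, 3.38%), above 0 for 6 of the 7 (all genes, 50.4%) and, without EV RV replicate 1, above 0 for 5 of the 7 (all genes, 50.5%). The genes were picked with this contrast known, and nothing is read from those shares.

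RefSeq promoter sequences were at hand for 2 of the 7 genes, *Prdm1* and *Nfil3*, and both are shown. *Il10*, *Il24*, *Maf*, *Bhlhe40* and *Ahr* had no entry. Each line gives the 250 bases before the RefSeq start on the minus strand of GRCm38.p6, chr10:44458749-44458998 for *Prdm1* and chr13:52981040-52981289 for *Nfil3*. The *Prdm1* start used here lies inside the annotated gene. So does that of *Nfil3*, whose annotated gene reaches to 52981073, within the window. Capitals mark matches, on either strand, to the motifs named next.
Prdm1: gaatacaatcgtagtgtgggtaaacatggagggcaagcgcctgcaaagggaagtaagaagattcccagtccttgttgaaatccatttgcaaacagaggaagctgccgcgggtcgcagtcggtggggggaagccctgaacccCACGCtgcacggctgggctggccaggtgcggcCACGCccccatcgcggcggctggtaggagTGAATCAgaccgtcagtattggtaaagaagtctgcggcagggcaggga
Nfil3: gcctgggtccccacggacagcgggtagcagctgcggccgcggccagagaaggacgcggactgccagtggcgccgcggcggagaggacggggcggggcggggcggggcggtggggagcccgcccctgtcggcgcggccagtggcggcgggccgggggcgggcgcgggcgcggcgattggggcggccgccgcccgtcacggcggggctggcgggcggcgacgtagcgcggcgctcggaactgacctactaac

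The motifs searched were the AP-1 site TGANTCA, the composite of AP-1 and IRF sites in which GAAA follows TGANTCA after 4 bases of any kind, the E-box CACGTG that BHLHE40 can bind, the core GCGTG of the AHR response element, the NFIL3-type site TTANNTAA and the Maf half-site TGCTGA. The *Prdm1* window held 1 AP-1 site, TGAATCA, which began 48 bases before the start, and 2 AHR cores on the other strand, beginning 109 and 77 bases before it. The *Nfil3* window, at 81.6% G and C against 59.2% for *Prdm1*, held none of the 6 motifs. Of 32851 RefSeq promoter windows of the same length, 6.75% held the AP-1 site, 28.2% the AHR core, 16.1% the Maf half-site, 6.02% the E-box, 5.43% the NFIL3-type site and 0.0974% the composite, whose AP-1 part overlaps the AP-1 motif. A match of letters is a description and not a site of binding.

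The 7 genes spanned a wide range of levels. On the TPM scale, which is per transcript length, *Bhlhe40* was the highest of the 7 in every library. In the Tox RV libraries and EV RV replicate 2, *Il24* came next, then *Nfil3* and *Il10* in either order and then *Maf*, with *Prdm1* and *Ahr* last. EV RV replicate 1 broke this order, since *Il24* stood below *Maf* there and *Il10* was the lowest of the 7. Over all libraries the ranges of neighbours in the order overlapped, except that *Maf* stayed above *Prdm1* and *Ahr*. These ranges pool the libraries, and within each library *Bhlhe40* stood above its neighbour *Il24*. The other neighbours whose ranges overlapped changed order between libraries. The plot of TPM by gene shows the low EV RV values of the cytokine genes.

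**Figure D1:**
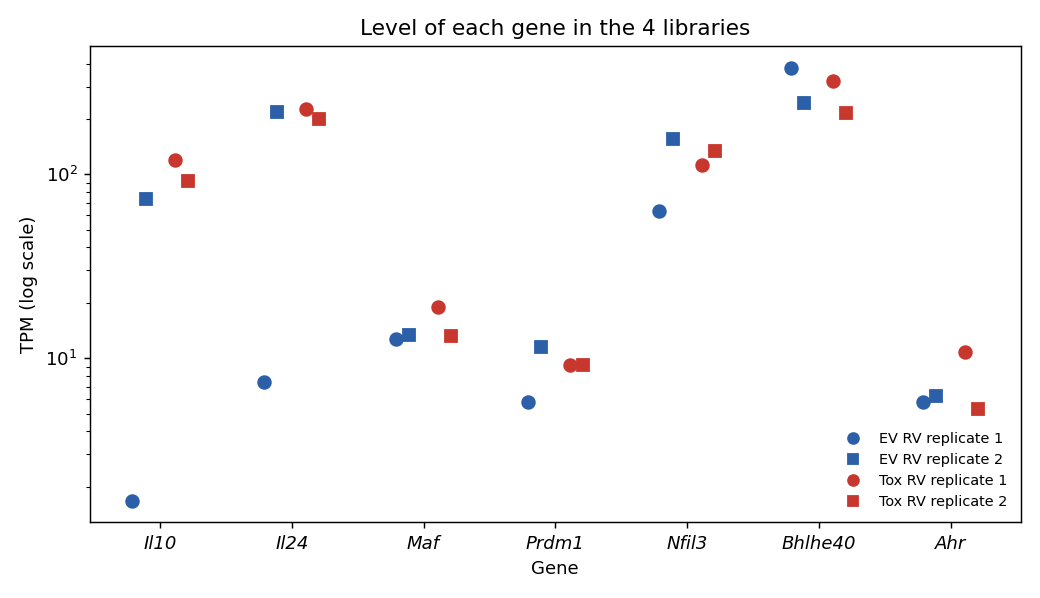
TPM (log axis) of the 7 genes in the 2 EV RV libraries (blue) and the 2 Tox RV libraries (red), with circles for replicate 1 and squares for replicate 2. *Il10* and *Il24* in EV RV replicate 1, at 1.68 and 7.38 TPM, lie far below the other 3 libraries, while *Bhlhe40* stays between 214 and 381 TPM.

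The *Il10* gene occupies 131019845 to 131024974 of mm10 chromosome 1, on the plus strand (GENCODE vM21, protein coding). Its level was 1.68 and 73.3 TPM under EV RV and 119 and 91.9 TPM under Tox RV. The Tox RV libraries were thus the 2 highest, and EV RV replicate 2 lay far nearer to them than to the other EV RV library. Among all 24369 genes ordered by TPM, *Il10* ranked 1578 in EV RV replicate 2, 924 and 1234 in the Tox RV libraries and 11037 in EV RV replicate 1. EV RV replicate 1 had 49 counts, or 1.16 CPM with an exact 95% Poisson interval of 0.859 to 1.54 that covers counting error alone. The group levels were 27.3 ± 37.0 CPM (SD, n = 2) for EV RV and 79.4 ± 14.5 CPM (SD, n = 2) for Tox RV, or 1.53 as a log2 fold change (standard error 1.33). Without EV RV replicate 1 it was 0.57 (standard error 0.20), the mean of the Tox RV libraries then being 1.49-fold that of EV RV replicate 2. Without EV RV replicate 2 it was 6.10.

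*Il24*, also on chromosome 1 (130882074 to 130887454, minus strand, protein coding), was the more abundant cytokine transcript of the pair. It stood at 7.38 and 217 TPM under EV RV and at 227 and 199 TPM under Tox RV. Apart from EV RV replicate 1, the 3 libraries lay close together, and EV RV replicate 2 lay between the Tox RV libraries, so the groups overlapped. With all libraries its log2 fold change was 0.97 (standard error 1.24). It was 0.011 (standard error 0.15) without EV RV replicate 1 and 4.98 without EV RV replicate 2. Between EV RV replicate 2 and the Tox RV libraries *Il24* therefore showed no difference larger than its standard error. The TPM of *Il24* divided by that of *Il10* was 4.39 and 2.96 under EV RV and 1.91 and 2.17 under Tox RV. Within a library this ratio was lower under Tox RV than in either EV RV library, and in EV RV replicate 1 it rests on 180 and 49 counts.

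*Maf* encodes c-Maf, a bZIP factor that activates *Il10* in many helper T cells, and lies on chromosome 8 (115682942 to 115707794, minus strand). Its CPM were 26.7 and 29.4 under EV RV and 43.4 and 30.1 under Tox RV. Both Tox RV libraries were above both EV RV libraries on this scale, but Tox RV replicate 2 by a narrow margin, and in TPM it was level with EV RV (12.8 and 13.4 against 19.1 and 13.3). Tox RV against EV RV came to 0.39 on the log2 scale (standard error 0.23), and to 0.32 without EV RV replicate 1. Without Tox RV replicate 1 it was 0.097. Unlike the cytokine genes, *Maf* differed little between the EV RV libraries (1.10-fold). An antisense gene, *Gm15655*, overlaps *Maf*.

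*Ahr* encodes the aryl hydrocarbon receptor, a partner of c-Maf at *Il10* in type 1 regulatory (Tr1) cells, and lies on chromosome 12 (35497974 to 35535038, minus strand). It was at 18.4 and 21.1 CPM under EV RV and at 37.8 and 18.3 CPM under Tox RV. Tox RV replicate 1 was the highest library and Tox RV replicate 2 the lowest, so the groups overlapped. The 2.06-fold gap between the Tox RV libraries was exceeded by 3.63% of the genes tested. On the log2 scale the difference was 0.51 (standard error 0.35), with 0.41 without EV RV replicate 1 and -0.12 without Tox RV replicate 1. A noncoding gene on the other strand, *Gm48236*, overlaps the span of *Ahr*, and whether their exons overlap was not checked.

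*Prdm1*, on chromosome 10 (44437177 to 44528501, minus strand), encodes Blimp-1, a zinc finger repressor that also promotes *Il10* in T cells. Its CPM were 17.4 and 36.7 under EV RV and 30.3 in each Tox RV library. The Tox RV libraries lay between the EV RV libraries and differed 1.00-fold from each other, a smaller gap than that of 99.7% of the genes tested. Its log2 fold change was 0.16 (standard error 0.35) with all libraries and -0.28 (standard error 0.14) without EV RV replicate 1, so its direction turned on that library.

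*Nfil3*, on chromosome 13 (52967209 to 52981073, minus strand), encodes the bZIP factor NFIL3. It stood at 70.3 and 184 CPM under EV RV and at 137 and 163 CPM under Tox RV. The arrangement was that of *Prdm1*, with both Tox RV libraries between the EV RV libraries. As a log2 fold change this was 0.24 (standard error 0.44), with -0.30 (standard error 0.15) without EV RV replicate 1 and 1.10 without EV RV replicate 2.

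*Bhlhe40*, on chromosome 6 (108660629 to 108666925, plus strand), encodes a basic helix-loop-helix repressor. Its CPM were 675 and 454 under EV RV and 620 and 413 under Tox RV. Replicate 1 was higher than replicate 2 in both groups, and the groups overlapped. Of the 6 CD8 T and NK cell markers tested, 4 (*Klrd1*, *Klrk1*, *Klrb1c* and *Cd8b1*) were also higher in replicate 1 of both groups, with *Klrd1* at 14.2 and 1.90 CPM under EV RV and 10.2 and 1.99 CPM under Tox RV. *Cd8a* was lower in replicate 1 of both groups, at 1.54 to 2.14 CPM, and *Eomes* was lower in replicate 1 under EV RV and nearly level under Tox RV. The part of these markers in the result was not tested. A log2 fold change of -0.13 had a standard error of 0.29 and turned to 0.18 without EV RV replicate 1 and to 0.14 without Tox RV replicate 2. It was 0.0073 when libraries were scaled by their totals, which moved the median of all genes from 0.0036 to 0.12. *Bhlhe40* is overlapped on the other strand by *0610040F04Rik*, which was at 0.96 to 2.00 TPM. Within a library the TPM of *Nfil3* divided by that of *Bhlhe40* was 0.165 and 0.641 under EV RV and 0.351 and 0.625 under Tox RV, so this ratio varied more within EV RV than between the group means.

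**Figure D2:**
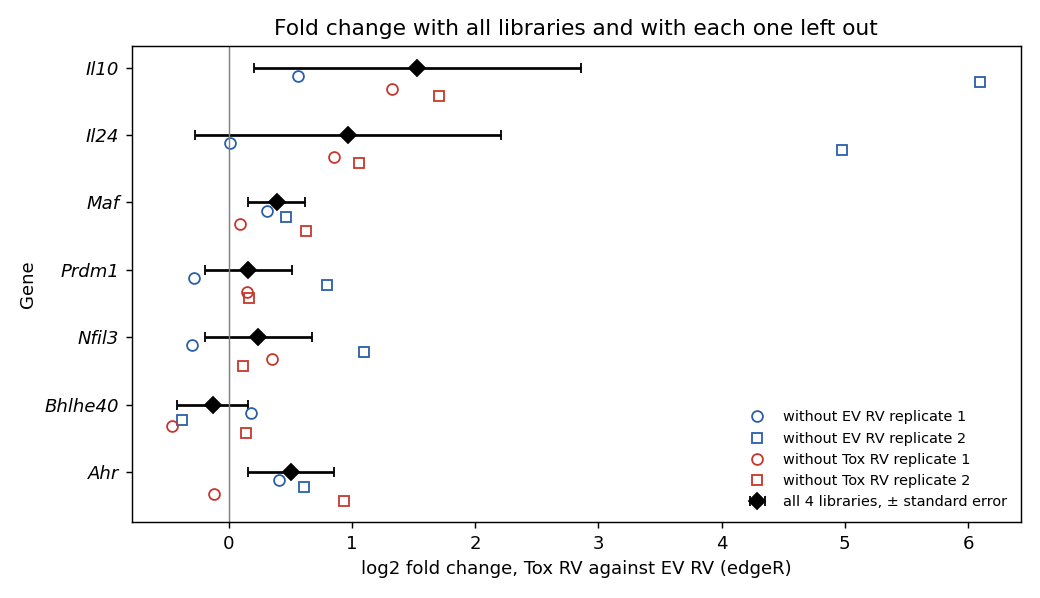
Log2 fold change of Tox RV against EV RV for the 7 genes, from edgeR with all 4 libraries (black diamonds, bars of 1 standard error) and with each library left out (open symbols, coloured by the group it belongs to). *Il10* and *Il24* move to 6.10 and 4.98 without EV RV replicate 2 and to 0.57 and 0.011 without EV RV replicate 1, while the regulators stay between -0.46 and 1.10.

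The EV RV libraries differed from each other by more than the fitted group difference for *Il10*, *Il24*, *Prdm1*, *Nfil3* and *Bhlhe40*. They differed by less than it for *Maf* and *Ahr*. How often this holds over all genes was not counted, so it is not read as a trait of these genes. On log2 CPM, EV RV replicate 1 minus replicate 2 was -5.48 for *Il10*, -4.94 for *Il24*, -1.39 for *Nfil3* and -1.07 for *Prdm1*, against a standard deviation of 0.68 over the 14143 genes tested. *Il10* had the lowest value of all genes tested and *Il24* ranked 4 from the bottom. In CPM, EV RV replicate 2 exceeded replicate 1 by 46.0-fold for *Il10* and 31.0-fold for *Il24*, while the Tox RV libraries differed by 1.30-fold and 1.14-fold. Set against EV RV replicate 1 alone, both Tox RV libraries were above it for 5 of the 7 genes and below it for 1 (all genes, 42.6% and 41.7%). Set against EV RV replicate 2 alone, they were above it for 2 genes, *Il10* and *Maf*, and below it for 2, *Prdm1* and *Nfil3* (all genes, 36.9% and 33.5%).

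**Figure D3:**
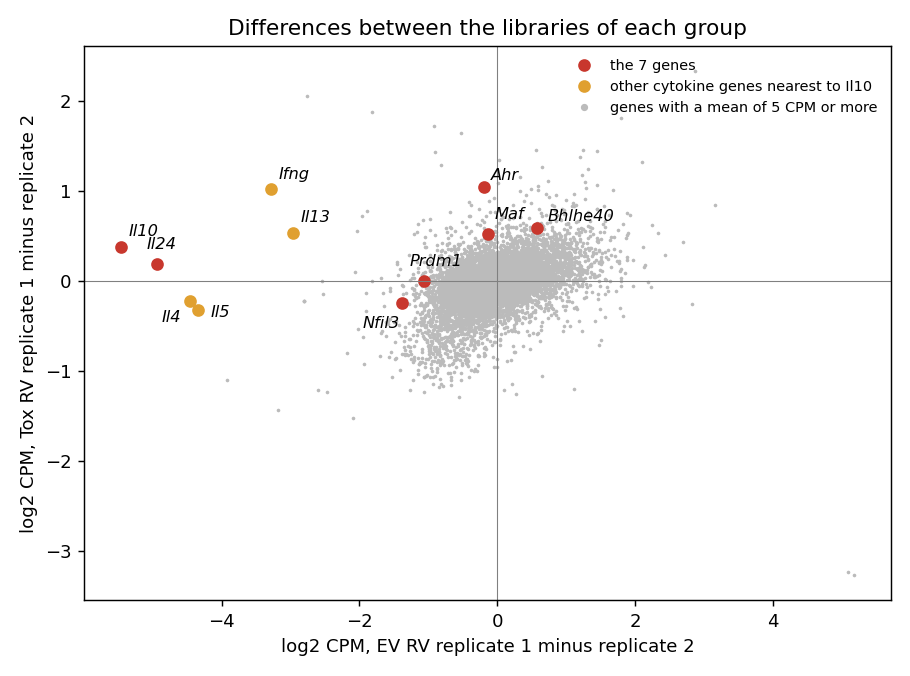
Difference in log2 CPM between the libraries of each group, EV RV on the x axis and Tox RV on the y axis, for the 7 genes (red), 4 other cytokine genes (orange) and genes with a mean of 5 CPM or more (grey). The cytokine genes sit far to the left, since they were low in EV RV replicate 1, and are spread less widely on the y axis.

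The genes whose pattern over the 4 libraries was most like that of *Il10* were other effector cytokine genes. Likeness was taken as the Euclidean distance between log2 CPM values centred on each gene's mean, over 4 libraries and 9695 genes with a mean of 5 CPM or more. *Il24* was nearest to *Il10* (distance 0.907) and *Il10* nearest to *Il24*. Next from *Il10* came *Il13* (2.47), *Il4* (2.49), *Il5* (2.77) and *Ifng* (2.83), and the same 4 genes came next from *Il24*, at 1.60 to 1.99. *Il4*, *Il5* and *Il13* encode the cytokines of Th2 cells and *Ifng* that of Th1 cells. EV RV replicate 1 was the lowest library for each of these genes, with *Il4* at 1.68, *Il5* at 0.711, *Il13* at 10.5 and *Ifng* at 10.9 CPM. Likeness was measured over these same libraries, so this shared low value follows from the choice of the genes.

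Set against EV RV replicate 2, these genes parted. *Il4* was at 38.1 CPM in EV RV replicate 2 and at 14.4 and 16.8 CPM under Tox RV. *Il5* was at 15.4 CPM against 4.84 and 6.07 CPM, and *Ifng* at 107 CPM against 96.0 and 47.4 CPM. *Il13*, at 82.3 CPM against 107 and 73.7 CPM, had the Tox RV libraries on either side, as *Il24* did. Of these 6 cytokine genes *Il10* was the one with both Tox RV libraries above EV RV replicate 2 (all genes, 36.9%). For *Il4*, *Il5* and *Ifng* both lay below it (all genes, 33.5%). These positions rest on EV RV replicate 2 alone, and nothing is read from them. The log2 fold changes with all 4 libraries were 0.96 for *Il13*, -0.36 for *Il4*, -0.57 for *Il5* and 0.29 for *Ifng*, with adjusted p-values of 0.897 to 0.959 in edgeR's quasi-likelihood test. The choice by likeness to *Il10* and *Il24* brought in genes with a wide spread within EV RV, so nothing is read from these p-values.

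**Figure D4:**
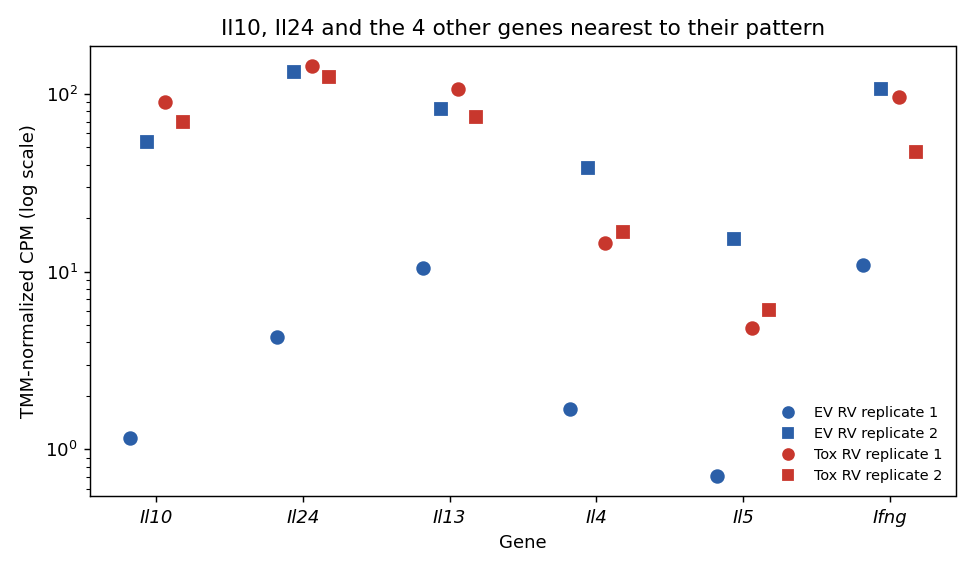
TMM-normalized CPM (log axis) of *Il10*, *Il24* and the 4 other genes nearest to their pattern, in the 2 EV RV libraries (blue) and the 2 Tox RV libraries (red). EV RV replicate 1 is the lowest library for each gene, at 0.711 to 10.9 CPM, and both Tox RV libraries exceed EV RV replicate 2 for *Il10* but lie below it for *Il4*, *Il5* and *Ifng*.

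*Il10* and *Il24* lie in a cluster of IL-10 family genes, with the start of the minus-strand *Il24* 132 kb to the left of that of *Il10*, and *Il20* and *Il19* between them. *Il20* had 0 counts in each library. *Il19* had 0 and 19 counts under EV RV and 13 and 11 under Tox RV. The 0 in EV RV replicate 1 allows up to 0.0711 CPM (3 counts), below the lowest of the other libraries, 0.205 CPM. GENCODE vM21 places 15 genes within 200 kb of *Il10*, of which 9 were listed in the files and 8 were tested. The flanking genes outside the cytokine cluster did not share the low value. *Mapkapk2*, a kinase gene on the right of *Il10*, was at 209 and 241 TPM in EV RV and 163 and 164 TPM in Tox RV (log2 fold change -0.38, standard error 0.18), and *Rassf5* at 88.3 and 73.9 TPM in EV RV and 110 and 93.4 TPM in Tox RV (0.41, standard error 0.18). *Dyrk3* (0.38), *Eif2d* (-0.042) and *Pigr* (-0.025, at most 33 counts) were the others. Their adjusted p-values in edgeR's quasi-likelihood test were 0.897 or higher.

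**Figure D5:**
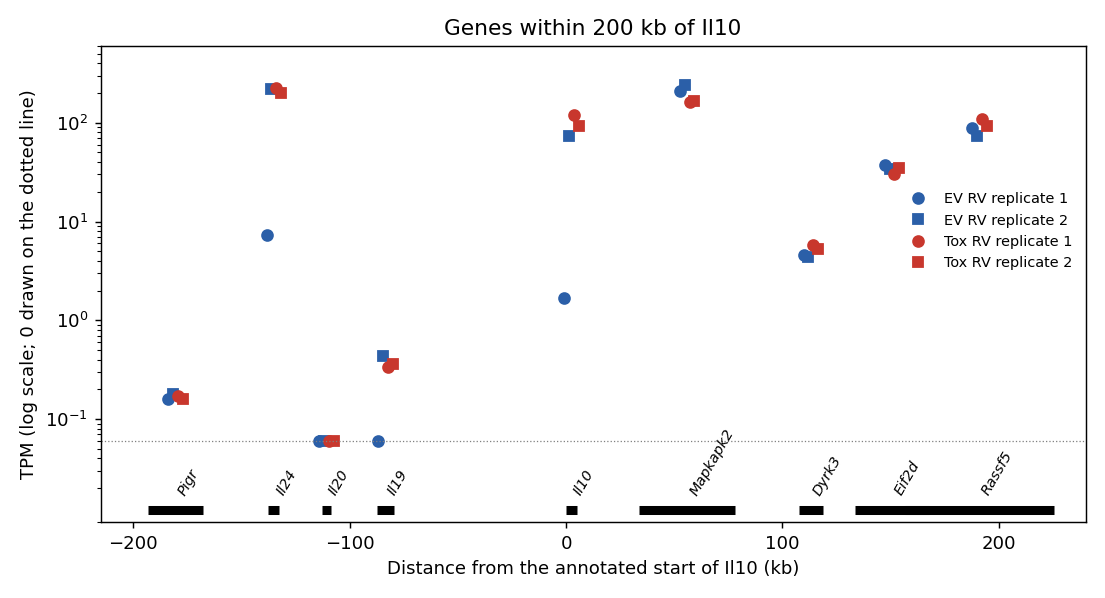
TPM (log axis) of the 9 listed genes within 200 kb of *Il10*, drawn at the middle of each gene by distance from the annotated start of *Il10*, with black bars for the spans of the genes and values of 0 drawn on the dotted line. *Il10*, *Il24* and *Il19* show EV RV replicate 1 (blue circles) apart from the other libraries, and *Mapkapk2*, *Dyrk3*, *Eif2d*, *Rassf5* and *Pigr* do not.

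Around the 7 genes stood 10 lists of 90 genes linked to them by known function, of which 78 were tested. None passed edgeR's quasi-likelihood test (smallest adjusted p = 0.897), 6 had an unadjusted p-value below 0.05 (7.69%, 3.62% of all genes), and 1 of them passed DESeq2 (*Il12rb2*, adjusted p = 0.0111). Over the 78 genes the median was -0.09 on the log2 scale, or 0.02 once EV RV replicate 1 was left out, beside 0.0036 and 0.0030 for all genes. Both Tox RV libraries were above both EV RV libraries for 10 of the 78 (12.8%, against 18.6% of all genes) and below for 17 (21.8%, against 17.4%).

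Of the other IL-10 family cytokines *Il19* was the 1 of 6 tested, and *Il22*, *Iltifb*, *Ifnl2* and *Ifnl3* had at most 5 counts in a library. *Il22* and *Iltifb* are near-identical copies whose reads RSEM divides. Receptor chains of the family were present for IL-10 but scarce for IL-24. *Il10ra*, the ligand-binding chain of the IL-10 receptor, was at 254 and 294 CPM under EV RV and 278 and 241 CPM under Tox RV, and *Il10rb* at 31.6 to 44.4 CPM. *Il20rb*, shared by the IL-24 receptors, was at 2.37 to 3.13 CPM, *Il22ra1* at 0.237 to 0.427 CPM and *Il20ra* at no more than 8 counts. The 4 receptor genes tested had log2 fold changes of -0.61 to -0.080, with 0 past the test. The 6 genes of IL-10 receptor signalling lay between -0.25 and 0.18, with *Stat3* at 0.069 (standard error 0.16) and *Socs3*, its feedback target, at -0.051 (standard error 0.35). *Socs3* was at 13.3 and 27.5 CPM under EV RV, and its log2 fold change was -0.49 when replicate 1 of that group was left out and 0.58 when replicate 2 was.

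Among 11 receptors of cytokines and costimuli that act upstream of *Il10*, 0 passed the test, 3 had positive and 8 negative log2 fold changes and the median was -0.16 (-0.25 without EV RV replicate 1). *Il12rb2*, a chain of the IL-12 receptor, had the largest difference at -1.39 (standard error 0.32), and -0.92 without EV RV replicate 1. *Il27ra*, a chain of the receptor for IL-27, which induces IL-10 in T cells, was at 86.3 and 54.6 CPM under EV RV and 85.9 and 69.3 CPM under Tox RV (0.14, standard error 0.27, and 0.50 without EV RV replicate 1).

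Of 20 other regulators of *Il10*, all tested, 7 had positive and 13 negative log2 fold changes, the median was -0.10 (0.090 without EV RV replicate 1), and 0 passed the test. *Batf*, which encodes an AP-1 family factor that binds with IRF4 and JUN proteins, was at 17.6 and 62.4 CPM under EV RV and at 58.7 CPM in each Tox RV library. EV RV replicate 1 was thus low for *Batf* as for *Il10*, and EV RV replicate 2 was above both Tox RV libraries. The log2 fold change of *Batf* was 0.55 (standard error 0.55), and -0.094 without EV RV replicate 1. *Irf4* was at 659 and 1110 CPM under EV RV and 652 and 699 CPM under Tox RV, and *Junb* at 311 and 324 CPM under EV RV and 396 and 316 CPM under Tox RV. *Jun* was at 155 and 101 CPM under EV RV and 68.1 and 66.9 CPM under Tox RV, both below, at -0.92 on the log2 scale (standard error 0.24, edgeR adjusted p = 0.897) and -0.59 without EV RV replicate 1.

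Relatives, partners and targets of the 5 regulators gave no gene past the test. The 5 tested Maf family genes and partners had a median log2 fold change of 0.13, with *Mafk*, a small Maf gene, at 0.42 (standard error 0.27), and 0.12 without EV RV replicate 1. Of 7 tested partners and targets of AHR 6 had positive values, with a median of 0.16 (0.088 without EV RV replicate 1). *Ahrr*, the AHR repressor and a target of the receptor, was at 0.616 and 0.420 CPM under EV RV and 2.28 and 1.20 CPM under Tox RV, higher in both, at 1.76 on the log2 scale (standard error 0.48, edgeR adjusted p = 0.897), with a range of 1.21 to 2.15 over the fits that omit a library. Of the other AHR targets, *Tiparp* was at 15.8 and 27.8 CPM under EV RV and 27.5 and 31.9 CPM under Tox RV, and *Nqo1* at 1.52 and 3.24 CPM under EV RV and 1.68 and 3.28 CPM under Tox RV. *Cyp1a1* never passed 6 counts, and *Cyp1b1* had 0 and 3 counts under EV RV and 18 and 0 under Tox RV, and neither had enough counts to be tested.

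Of 8 genes that are relatives of NFIL3 and BHLHE40 or other clock genes, 2 had positive and 6 negative log2 fold changes (median -0.19, 0.055 without EV RV replicate 1). *Bhlhe41*, the closest relative of *Bhlhe40*, was at 6.35 and 3.10 CPM under EV RV and 1.30 and 2.02 CPM under Tox RV, or -1.51 on the log2 scale (standard error 0.45), and -0.91 without EV RV replicate 1. The 5 genes that Blimp-1 is known to repress had a median of -0.047, and 0.70 without EV RV replicate 1. The latter is the value of *Il2*, which had 50 and 62 counts under EV RV and 138 and 23 under Tox RV. *Myc* was at 226 and 166 CPM under EV RV and 147 and 117 CPM under Tox RV (-0.57, standard error 0.23, and -0.33 without EV RV replicate 1). *Bcl6* and *Tcf7* were high in EV RV replicate 1, where *Prdm1* was low, at 46.6 and 242 CPM against 13.3 and 67.9 CPM in EV RV replicate 2. Under Tox RV *Bcl6* was at 28.9 and 29.0 CPM and *Tcf7* at 148 and 195 CPM. The part of *Prdm1* in these values was not tested. Of the 11 genes associated with Tr1 cells, 5 had positive and 6 negative values (median -0.038, and 0.082 without EV RV replicate 1). *Tigit*, an inhibitory receptor gene, was at 19.1 and 10.7 CPM under EV RV and 8.63 and 7.84 CPM under Tox RV (-0.85, standard error 0.31, and -0.38 without EV RV replicate 1). *Lag3* was at 53.2 and 32.6 CPM under EV RV and 34.5 and 29.1 CPM under Tox RV, and *Havcr2* at 18.0 and 73.5 CPM under EV RV and 92.9 and 63.3 CPM under Tox RV. *Itga2* went the other way, at 0.806 and 1.09 CPM under EV RV and 1.14 and 1.72 CPM under Tox RV (0.58, standard error 0.39). *Il21* had the highest value, 1.41 (standard error 0.76), at 1.19 and 0.815 CPM under EV RV and 4.39 and 0.848 CPM under Tox RV. Both Tox RV libraries were above both EV RV libraries for 1 of the 11, *Itga2*, and below for 2 (all genes, 18.6% and 17.4%). *Foxp3*, the marker gene of Treg cells, stayed between 0.723 and 1.25 CPM, and the 4 Treg markers had a median of -0.11, and 0.012 without EV RV replicate 1.

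Of the 78 genes, 7 were more than 2-fold lower and 12 more than 2-fold higher in EV RV replicate 1 than in EV RV replicate 2 (all genes, 3.73% and 7.47%). The lower genes included *Batf*, *Havcr2*, *Gzmb* and *Il4ra*, and the higher ones *Bach2*, *Tcf7*, *Bcl6*, *Nfatc1* and *Rora*. *Gzmb*, which encodes granzyme B, went from 1219 CPM in EV RV replicate 2 to 329 CPM in replicate 1, and *Bach2*, a repressor of effector genes, from 107 to 374 CPM. Of the 5 CD4 T cell markers, *Cd3e* was at 219 CPM in EV RV replicate 1 and at 71.6 to 91.2 CPM in the other libraries. *Cd5* was also highest there, at 204 CPM against 97.9 to 142 CPM. *Cd3g* (317 against 248 to 434 CPM) and *Cd4* (384 against 324 to 479 CPM) lay within the range of the other libraries. *Zbtb7b* was at 83.3 against 85.9 to 94.3 CPM. The values that set EV RV replicate 1 apart moved with the low *Il10* and *Il24* of the same library, and their part in it was not tested.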

How the data were processed

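RNA-seq was carried out on GFP+ CD4 T cells, with 2 EV RV and 2 Tox RV libraries grouped by their sample labels. The authors ran FastQC, then bowtie against the mm10 transcripts, then RSEM for gene levels, 1 library per file. Bowtie2 is also named in the submitters' processing notes, and the strand setting is not given in the sources used here. The deposited expected counts are RSEM estimates and are not normalized. The deposited TPM values are per transcript length and sum to 1000000 per library. The deposited FPKM values and a further table of the whole series, named TPM but not summing to 1000000 per column, were not used. Expected counts were rounded and fitted in R 4.3.3 with edgeR 4.0.16 (filterByExpr with a minimum count of 10, TMM, glmQLFit and glmQLFTest, group as the only term, Benjamini-Hochberg adjustment over 14143 genes). The standard error is the log2 fold change divided by the root of the F statistic, and an SD covers 2 libraries. The p-values of edgeR set the group difference against the spread between these libraries, moderated across all genes (prior degrees of freedom 3.77). Replicates of a group differed beyond counting error (chi-square per degree of freedom 412 and 74.3). The fit was tested on simulated data. Log2 CPM for distances used a prior count of 2. Alternatives were DESeq2 1.42.0, limma 3.58.1 on log2(TPM + 1) and log2(TPM + 0.1), other scalings, no filter, *Rn45s* left out, the replicate number as a block and each library left out. The 7 genes, lists and motifs were chosen with earlier results of these data known. List genes were named where the unadjusted p-value was below 0.05 or a direct link to a member is known, and for *Il10* and *Il24* the 5 nearest genes. *Klrd1*, *Klrk1*, *Klrb1c*, *Cd8b1*, *Nqo1*, *Havcr2*, *Gzmb*, *Il4ra*, *Rora*, *Nfatc1*, *Bach2*, *Lag3*, *Itga2*, *Il21*, *Cd3e*, *Cd3g*, *Cd5*, *Zbtb7b* and *Mafk* were named after their values were seen. Some genes of the lists are not reported here. Positions are from GENCODE vM21 and promoters from RefSeq (GRCm38.p6).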

Additional observations from a re-analysis of the deposited data

How the results depend on the processing

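The count of genes past the test, 0 with edgeR, stayed at 0 with library totals or median-of-ratios factors as the scaling, in both limma fits, without *Rn45s* and with a 2-fold threshold added. It was 22 without the low-count filter, 22 with DESeq2, 16 with the replicate number as a block, and 1 to 600 with a library left out. DESeq2 without EV RV replicate 1, chosen after seeing the data, gave 85. The 600 came without EV RV replicate 2, when the lone EV RV library was assumed to vary like the Tox RV pair. Without Tox RV replicate 2 the count was 23. A lone library gives no spread of its own, so no call of the 7 genes is read from the fits with a library left out. In the 8 alternatives that kept every library, 0 of the 7 genes passed. The cause of these shifts was not tested. The log2 fold change of *Il10* ranged from 0.57 to 6.10 and that of *Il24* from 0.011 to 4.98 with each library left out, and from 1.52 to 3.20 and 0.96 to 2.40 over the other 8 alternatives. Among the regulators, *Prdm1*, *Nfil3* and *Ahr* changed sign in 1 of 12 alternatives each and *Bhlhe40* in 3, while *Maf* kept its sign in 12. With the replicate block *Il10* was at 2.99 and *Il24* at 2.39. The deviations of same-numbered libraries from their group means correlated at 0.30 across genes, over 2 numbers that the labels do not tie to a mouse. At this depth *Cyp1b1* was too scarce for a difference between the groups to be read, and *Il19* had at most 19 counts in a library.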
